A study of Mus musculus with 8 samples.

Results

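Neurotrophic factors are secreted proteins that keep retinal neurons alive, and the 10 genes described here encode such factors and the receptors that bind them: Bdnf, Ntrk2, Ngfr, Cntf, Cntfr, Lif, Lifr, Il6st, Fgf2 and Serpinf1. They were taken by gene name from a table of 57010 genes, and each name matched 1 row. The retinas came from C57BL/6J mice that were 17 days old and had oxygen-induced retinopathy, a model in which a period of high oxygen removes retinal capillaries and the return to room air leaves the tissue hypoxic. RNA was sequenced from 4 control libraries, which received an scAAV (self-complementary adeno-associated virus) labelled as control, and from 4 knockdown libraries, which received an scAAV against the long noncoding RNA MM2P. The labels do not name the promoter of the vector or the cells it enters. They also do not say whether a library is 1 animal or a pool, so p-values measure the spread between libraries, which may be technical.

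BDNF binds the receptor kinase TrkB, encoded by Ntrk2, and, as its precursor, the low-affinity receptor p75, encoded by Ngfr. LIF and CNTF signal through a shared receptor pair, LIFR and gp130 (encoded by Il6st), which CNTF joins through its own subunit, CNTFR, and which activates the transcription factor STAT3. In the injured mouse retina LIF is made by Müller glia, the radial glia that span the tissue, and is known to drive expression of Edn2, Gfap and Fgf2. FGF2 protects photoreceptors from light damage in rodents, and PEDF, encoded by Serpinf1, is a secreted serpin that supports neurons and restrains vessel growth.

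Library totals ran from 16.03 to 21.4 M estimated counts (M, 1000000 counts), with every knockdown total below every control total. The knockdown target, listed as Mm2pr, was nearly absent, with 1, 1, 16.95 and 7.34 estimated counts across controls 1 to 4 and 0, 0, 2 and 20.61 across the knockdown libraries in the same order, so it does not check the group labels. Sex-linked transcripts varied within both groups: for the Y-linked gene Ddx3y no library among control 1, knockdown 1 and knockdown 3 had any count (0), and the others had 814 to 1919. Xist, transcribed from the inactive X chromosome of females, was near absent from control 3 (16 counts) and present elsewhere (21026 to 49127 counts). Controls 2 and 4 and knockdown 2 and 4 held both transcripts, and so RNA of both sexes and of more than 1 animal. Whether this came from pooling is not stated, and for the other libraries the number of animals is not known. Markers of the retina were present, with the rod list summing to 28807 to 32502 transcripts per 1000000 (TPM, a level scaled for gene length and depth) and the Müller list to 5673 to 6034 TPM. The lens fibre markers summed to 1.44 to 4.14 TPM in the controls and 33.6 to 389 TPM in the knockdown libraries, highest in knockdown 3. Keratin genes of the cornea and conjunctiva, Krt5, Krt13 and Krt14, were at 0 in all 8 libraries. Knockdown 1 held the highest levels of Lif and Fgf2 and stood apart in gp130 response genes described below, so values are given with and without it. Of 16118 tested genes, 107 (0.664%) were at least 1.5-fold higher in knockdown 1 than in every other library, against 13 to 49 for each of the others taken in the same way.

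None of the 9 genes tested passed the comparison of knockdown with control across all genes, but Lif and Fgf2 were highest in knockdown 1, by 2.18-fold and 1.36-fold over the next library. Lif reached 1.52 TPM there, against 0.146 to 0.698 TPM in the other 7 libraries, and Fgf2 reached 78.2 TPM against 38.6 to 57.3 TPM. The same library held the highest levels of 11 of the 18 tested genes on a list of gp130 signalling and response genes, among them Lcn2, Serpina3n, Edn2 and Socs3, where 12.1% of all tested genes were highest. Knockdown 1 was picked out after its values were seen, and the list was chosen with earlier results known, so this count is a description only. The receptor genes Lifr, Il6st, Cntfr, Ntrk2 and Ngfr stayed within a narrow range over the 8 libraries.

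The 300-base windows around the annotated starts of Lif and Fgf2 are shown because these genes were high together in knockdown 1, and a Bdnf window because it alone among the windows of the 10 genes held a STAT-type match. Sequences are from RefSeq on GRCm38.p6, from 250 bases before to 50 after a start, written 5′ to 3′ on the strand of the gene. Capitals mark matches to AP-1 (TGANTCA), CRE (TGACGTCA) or STAT-type (TTCNNNGAA) letters, searched on both strands, and no matches overlapped. All 10 genes matched the RefSeq table, with 22 windows between them.
Lif, chr11:4257318-4257617, plus strand: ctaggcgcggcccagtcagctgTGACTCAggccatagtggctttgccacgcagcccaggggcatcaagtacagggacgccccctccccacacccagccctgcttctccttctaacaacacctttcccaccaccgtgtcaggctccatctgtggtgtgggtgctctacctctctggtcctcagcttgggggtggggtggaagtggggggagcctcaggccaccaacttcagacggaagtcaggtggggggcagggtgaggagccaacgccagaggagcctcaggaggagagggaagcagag
Fgf2, chr3:37348403-37348702, plus strand: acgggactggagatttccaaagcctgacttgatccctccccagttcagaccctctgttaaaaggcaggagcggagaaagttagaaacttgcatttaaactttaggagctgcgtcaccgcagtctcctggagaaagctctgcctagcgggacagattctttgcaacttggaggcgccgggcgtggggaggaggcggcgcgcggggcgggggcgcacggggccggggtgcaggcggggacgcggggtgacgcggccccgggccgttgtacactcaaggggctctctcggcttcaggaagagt
Bdnf, chr2:109674450-109674749, plus strand: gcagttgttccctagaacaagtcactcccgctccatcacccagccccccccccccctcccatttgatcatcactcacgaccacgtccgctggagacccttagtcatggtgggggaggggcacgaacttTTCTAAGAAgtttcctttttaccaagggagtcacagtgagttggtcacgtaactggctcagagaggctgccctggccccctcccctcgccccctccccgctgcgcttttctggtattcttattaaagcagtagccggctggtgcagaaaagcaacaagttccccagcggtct
The Lif window held 1 AP-1 match, starting at -228 from the annotated start, and the Fgf2 window held none of the 3 motifs. The Bdnf window held 1 STAT-type match, starting at -122. Among the windows not shown, that of Cntf held an AP-1 match starting at -245, and another Bdnf window held one starting at -152. Among 32851 windows of the same length in the table, 8.3% held the STAT-type letters, 7.81% the AP-1 letters and 1.79% the CRE letters. A match is a description of letters and not a binding site, and no match says only that the letters are not in these windows.

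**Figure D1:**
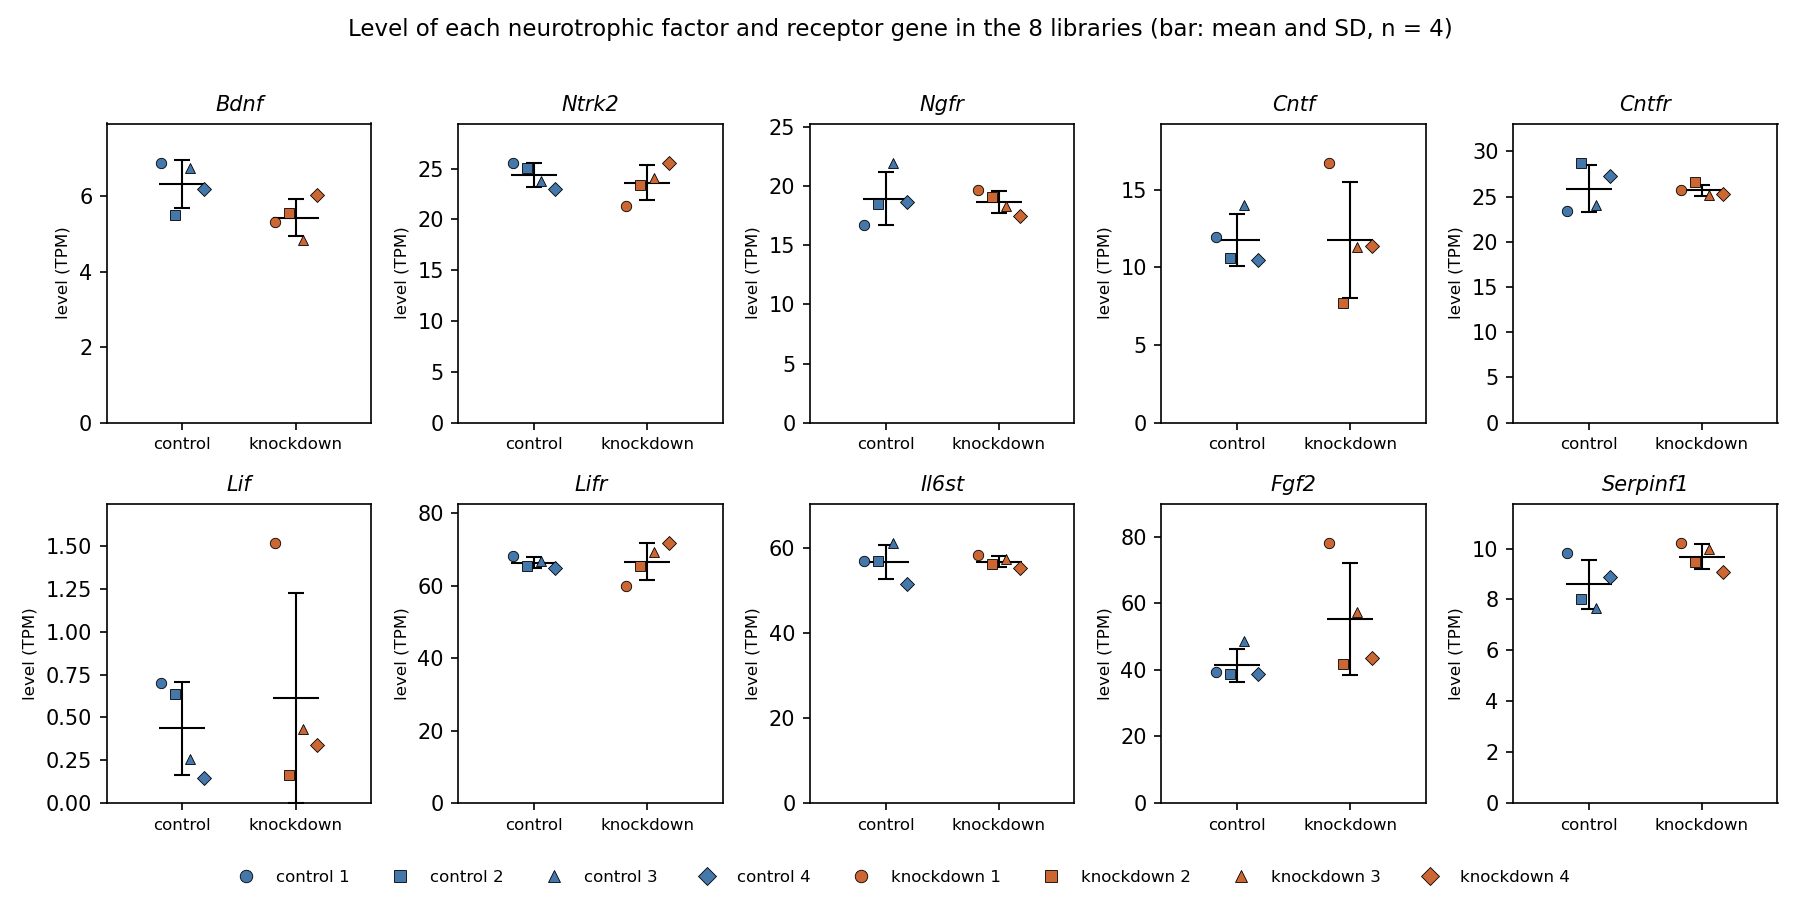
Level of each of the 10 genes in TPM (y axis, from 0) in the control and knockdown groups (x axis); each point is 1 library, the marker shape gives its replicate number, and bars show the mean and SD (n = 4). Knockdown 1 is the highest point for Lif (1.52 TPM), Fgf2 (78.2 TPM), Cntf (16.8 TPM) and Serpinf1 (10.2 TPM), and the groups overlap for all 10 genes.

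Lif was the least abundant of the 10. Controls 1 to 4 held 23, 21, 9 and 5 Lif counts, and the knockdown libraries held 48, 5, 11 and 11. Only knockdown 1 was above 1 TPM, so Lif did not pass the expression filter of at least 1 TPM in 4 libraries. In counts per 1000000 of the library (CPM), knockdown 1 had 2.56 (exact 95% counting interval 1.89 to 3.40), and the next highest, control 1, had 1.12 (0.713 to 1.69). The intervals of these libraries do not overlap, and they cover counting error only. In an edgeR quasi-likelihood fit with no filter, the log2 fold change of Lif was 0.53 (SE 0.46, adjusted p = 0.845). Without knockdown 1 it was -0.51 (SE 0.50, adjusted p = 0.813), so the sign depended on that library. The sign also changed in an edgeR fit of all 8 libraries with the Ddx3y level as a covariate (-0.0445, SE 0.43, unadjusted p = 0.917).

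Fgf2 was the most abundant of the factors and, after Lif, the most variable gene, with a coefficient of variation of 28.3% over the 8 libraries. The controls had 39.5, 38.6, 48.7 and 38.6 TPM, and knockdown 1 to 4 had 78.2, 41.7, 57.3 and 43.6 TPM. All 4 knockdown libraries were above controls 1, 2 and 4, and knockdown 2 and 4 were below control 3. The means were 41.4 ± 4.92 TPM and 55.2 ± 16.9 TPM (SD, n = 4), and the log2 fold change was 0.42 (SE 0.17, approximate 95% interval 0.05 to 0.78). Fgf2 did not pass the edgeR test over all genes (unadjusted p = 0.0280, adjusted p = 0.902). It was the 1 of 9 tested genes at an unadjusted p under 0.05, as were 5.27% of all tested genes. Without knockdown 1 the log2 fold change was 0.17 (with SE 0.10 and an edgeR adjusted p = 0.703). With the Ddx3y level as a covariate and all 8 libraries it was 0.28 (SE 0.16, edgeR unadjusted p = 0.110). With no expression filter Fgf2 passed in edgeR (log2 fold change 0.41, SE 0.10, adjusted p = 0.0249), whereas its adjusted p ranged from 0.673 to 0.99998 under the other alternatives.

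Counts of Fgf2 carried fractions in all 8 libraries, and whether they come from reads shared with overlapping genes was not tested. Fractions alone do not show such sharing. Cntf, which overlaps another gene (below), carried them in 0 libraries, and Ngfr, with no overlapping gene found, in 2. In GENCODE M21 on GRCm38, Fgf2 (ENSMUSG00000037225) spans chromosome 3, positions 37348346 to 37410108, on the plus strand. The opposite-strand gene Nudt6 shares 640 of its 6782 exonic bases, and had 2.503 to 5.41 TPM. The noncoding antisense gene Fgf2os lies within the locus and shares 0 exonic bases with Fgf2. Fgf2os had 31.5 TPM in knockdown 1, 9.40 in knockdown 3, 7.72 in control 3 and 5.01 to 5.70 TPM in the other 5 libraries. The sources used here do not say whether the counting used strand, so reads from the 640 bases shared by Fgf2 and Nudt6 cannot be told apart.

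Fgf1, which encodes the acidic FGF, did not share this pattern. It had 32.3 to 33.6 TPM in the controls, 32.4 to 33.2 TPM in knockdown 2 to 4 and 24.1 TPM in knockdown 1. The ratio of Fgf2 to Fgf1 TPM was thus 3.24 in knockdown 1, 1.77 in knockdown 3, and 1.19 to 1.45 in the other 6 libraries. Fgf1 was looked at beside Fgf2 after its values were seen.

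Cntf had 11.96, 10.6, 14.04 and 10.5 TPM in controls 1 to 4 and 16.8, 7.72, 11.3 and 11.4 TPM in knockdown 1 to 4. Both the highest and the lowest library were in the knockdown group, and the control range lay inside the knockdown range. The log2 fold change was 0.00 (with SE 0.21 and an edgeR adjusted p = 0.9997), with an approximate 95% interval of -0.45 to 0.46, so changes of that size were not excluded. Without knockdown 1 it was -0.25 (SE 0.18, edgeR adjusted p = 0.770). In GENCODE M21, 847 of the 1073 exonic bases of Cntf (ENSMUSG00000079415; chromosome 19, 12763660 to 12765632, minus strand) also belong to the same-strand gene Zfp91, which had 101 to 112 TPM. The level of Cntf is therefore uncertain, although its counts carried fractions in 0 libraries. Oligodendrocyte and Schwann cell markers, since Schwann cells are a known source of CNTF, summed to 29.1 to 33.1 TPM in the controls and 28.9 to 32.7 TPM in the knockdown, with only 2 of 7 averaging at least 1 TPM.

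Bdnf was lower on average in the knockdown group without passing the test. The controls had 6.89, 5.49, 6.73 and 6.18 TPM, and knockdown 1 to 4 had 5.32, 5.56, 4.84 and 6.02 TPM. Controls 1, 3 and 4 were above all knockdown libraries, and control 2 fell among them. The log2 fold change was -0.22 (SE 0.12, approximate 95% interval -0.47 to 0.03; edgeR unadjusted p = 0.0776, adjusted p = 0.939). Knockdown 1 did not set this value, which was -0.23 without it. Bdnf (ENSMUSG00000048482; chromosome 2, 109674700 to 109727007) has many alternative first exons, and the table gives 1 value over all of them. Its counts carried fractions in 4 libraries, and the opposite-strand gene Gm45346, which shares 896 of its 6217 exonic bases, summed to 14.5 counts over all 8 libraries.

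Serpinf1, the PEDF gene, had 9.81, 8.002, 7.65 and 8.90 TPM in the controls and 10.2, 9.46, 9.97 and 9.10 TPM in knockdown 1 to 4. The knockdown libraries were above controls 2, 3 and 4, and 2 of them were below control 1. The log2 fold change was 0.17 (with SE 0.13 and an edgeR adjusted p = 0.989), and 0.12 without knockdown 1. PEDF is also made by the retinal pigment epithelium (RPE) and by fibroblasts, which a retinal dissection can carry along. The RPE markers, of which 10 of 11 averaged at least 1 TPM, summed to 334 to 397 TPM in the controls and 313 to 411 TPM in the knockdown libraries. Ttr held the largest share of that sum, and single markers differed in sign. Tyr, a pigment gene, had a log2 fold change of 0.44 (edgeR adjusted p = 0.411), and Rdh5, of the visual cycle, had -0.42 (edgeR adjusted p = 0.465). Both were without overlap between groups, as were 2.95% of all tested genes, and both were named after their values were seen. The fibroblast markers, 5 of 6 at that level, summed to 11.9 to 26.2 and 13.2 to 20.2 TPM. Their part in the Serpinf1 values was not tested.

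Lifr and Il6st had the highest mean TPM of the 10, and with Cntfr they varied little between libraries. Lifr had 68.3, 65.5, 66.9 and 65.0 TPM in the controls and 60.1, 65.5, 69.2 and 71.9 TPM in knockdown 1 to 4, with the lowest and the highest library both in the knockdown group. Its log2 fold change was -0.00 (SE 0.05, approximate 95% interval -0.11 to 0.11, edgeR adjusted p = 0.9997). Il6st, which encodes the signal transducer gp130 shared by the whole cytokine family, had 51.6 to 61.3 TPM in the controls and 55.2 to 58.3 TPM in the knockdown. Its interval was -0.12 to 0.12 around a log2 fold change of 0.00 (SE 0.06, edgeR adjusted p = 0.9997). Cntfr, the subunit specific to CNTF, had 23.4 to 28.8 TPM in the controls and 25.2 to 26.6 TPM in the knockdown, with a log2 fold change of -0.01 (SE 0.09, interval -0.20 to 0.17, edgeR adjusted p = 0.998). Differences beyond these bounds lie outside the intervals, which does not show that the groups were equal.

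The neurotrophin receptors varied little between libraries. Ntrk2 had 25.5, 25.1, 23.8 and 23.0 TPM in the controls and 21.4, 23.4, 24.1 and 25.6 TPM in knockdown 1 to 4. Knockdown 1 was lowest and knockdown 4 highest, and the log2 fold change was -0.05 (SE 0.05, approximate 95% interval -0.16 to 0.06, edgeR adjusted p = 0.989). Neurons express full-length TrkB and glia mainly a truncated form without the kinase, and a value per gene does not separate these. Ngfr had 16.7 to 21.99 TPM in the controls and 17.5 to 19.7 TPM in the knockdown, with a log2 fold change of -0.03 (SE 0.10, interval -0.23 to 0.18, edgeR adjusted p = 0.997). In bulk tissue, fewer cells of a type and less RNA per cell cannot be told apart.

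**Figure D2:**
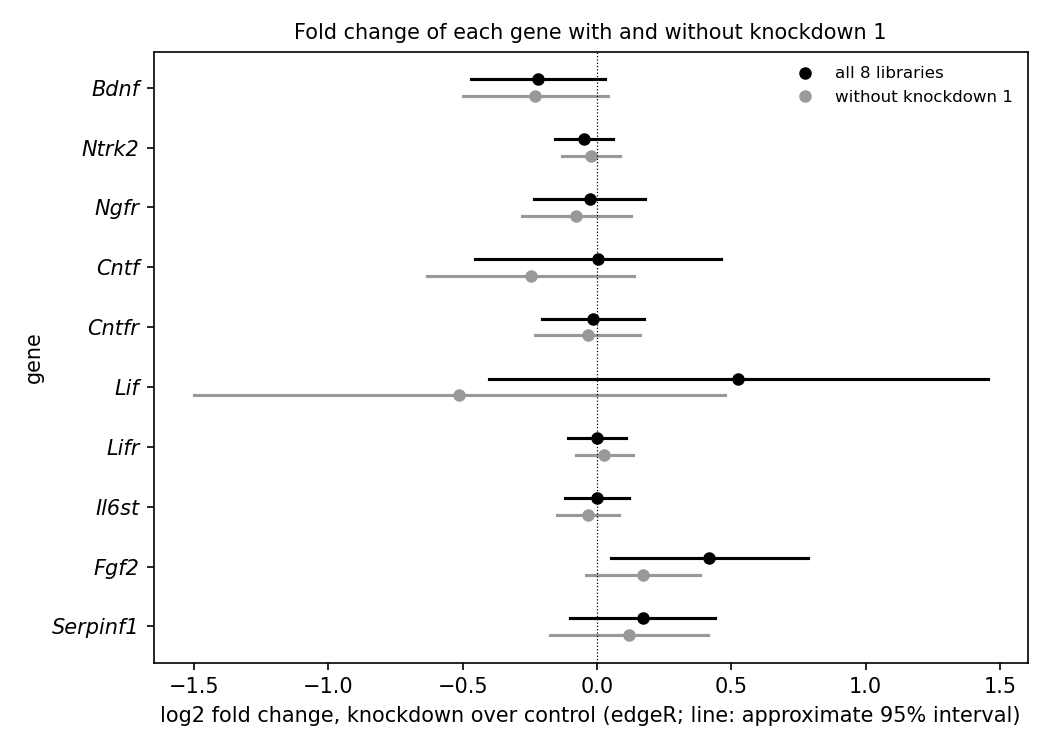
Log2 fold change of each gene, knockdown over control (x axis), with approximate 95% intervals from edgeR, for all 8 libraries (black) and without knockdown 1 (grey); Lif comes from the fit with no expression filter. The Fgf2 interval of 0.05 to 0.78 is the 1 interval that does not cover 0, and Lif passes from 0.53 to -0.51 when knockdown 1 is left out.

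By mean TPM over the 8 libraries the genes were ordered Lifr (66.5), Il6st (56.8), Fgf2 (48.3), Cntfr (25.8), Ntrk2 (24.0), Ngfr (18.8), Cntf (11.8), Serpinf1 (9.14), Bdnf (5.88) and Lif (0.524). Receptors thus filled 5 of the first 6 places. Lifr was above Il6st in 8 of 8 libraries, although their ranges overlapped. Il6st was above Fgf2 in 7 libraries and below it in knockdown 1, and Cntfr was above Ntrk2 in 6. The ranges of Fgf2 and Cntfr, of Serpinf1 and Bdnf, and of Bdnf and Lif did not overlap, while those of the other neighbours did. These TPM values rest on the gene lengths in the deposited table, which for Lifr is 4143 bases against 10776 annotated exonic bases in GENCODE M21, so the order between genes is approximate. The coefficient of variation over the 8 libraries was 4.81% for Il6st, 5.24% for Lifr, 5.97% for Ntrk2, 6.71% for Cntfr and 8.44% for Ngfr, against 10.1% to 86.1% for the ligand genes. All ligand genes but Fgf2 had fewer counts than these receptors: Lif 5 to 48, Cntf 64 to 141, Serpinf1 116 to 147 and Bdnf 120 to 227. Counting error is part of these coefficients and was not separated from them.

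None of the 9 tested genes passed the edgeR test at an adjusted p under 0.05, where 10 of 16118 genes (0.0620%) did. The 10 included the lens genes Cryaa, Cryba1, Crygb, Crygc, Crygd and Cryge. Each of these was below 1 TPM in every control and passed the expression filter through the knockdown libraries. The groups did not separate in TPM for any of the 10, as they did for 2.95% of tested genes. DESeq2 and limma on log2(TPM + 1) also called 0 of the 9 genes at an adjusted p, and 0 and 1 of them at an unadjusted p under 0.05. Knockdown 1 was the highest library for 3 of the 9 tested genes, and for Lif, against 12.1% of all tested genes. It was the lowest for Ntrk2 and Lifr, against 27.0% of all tested genes.

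Genes that respond to gp130 cytokines were examined on a list of 19, of which 18 were tested. Over all genes 0 passed in edgeR. At an unadjusted p under 0.05, 7 were higher and 1 lower, against 2.62% and 2.66% of all tested genes, and the median log2 fold change was 0.26 against 0.00 over all tested genes. The 7 were Lcn2, Serpina3n, Timp1, Bcl3, Edn2, Socs3 and Stat3, named after their values were seen except Lcn2. Bcl3 reached 1 TPM only in control 1 (1.39 TPM) and in knockdown 1, 2 and 4 (10.9, 1.19 and 1.21 TPM). It thus passed the filter mainly through the knockdown group, and did not pass it without knockdown 1. Without knockdown 1, 17 genes were tested, 0 were higher and 3 lower at that threshold, and the median was -0.02.

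Single values show how far knockdown 1 stood from the rest. Lcn2, which encodes a secreted iron carrier of reactive glia, had 320 TPM in knockdown 1 and 5.48 to 20.9 TPM in the other 7 libraries (log2 fold change 3.35, SE 1.04, edgeR adjusted p = 0.626, and 0.33 without knockdown 1). Serpina3n, a protease inhibitor gene of reactive astrocytes, had 159 TPM against 5.17 to 9.43 TPM. Edn2, the endothelin gene that injured photoreceptors express in mice, had 39.6 TPM against 1.95 to 8.94 TPM. These genes lie 15.3-fold, 16.9-fold and 4.43-fold above the next library.

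Socs3, the feedback inhibitor of gp130 signalling, had 2.92, 2.58, 3.09 and 2.44 TPM in the controls and 18.1, 2.53, 5.24 and 3.02 TPM in knockdown 1 to 4. Gfap, the intermediate filament gene of reactive glia, had 121 TPM in knockdown 1 and 30.6 to 61.9 TPM in the others. The kinase gene Jak1 and the inhibitor gene Pias3, the most abundant of the list, had log2 fold changes of 0.03 and -0.05. Stat3 had 66.5 TPM in knockdown 1, 58.4 in knockdown 3 and 42.8 to 49.6 TPM in the other 6. Knockdown 1 was at least 1.5-fold above every other library for 9 of the 18 genes, against 0.664% of all tested genes, and for 0 of the 9 tested genes of the neurotrophic set. Both counts describe 1 library picked out after its values were seen.

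For Fgf2 the highest libraries were knockdown 1, knockdown 3 and control 3, in that order. Edn2, Socs3 and Timp1 had the same order, as did Fgf2os and 65 of the 16118 tested genes in all (0.403%). Lif did not have it, since controls 1 and 2 followed knockdown 1. This order was noticed in the data and was not tested.

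**Figure D3:**
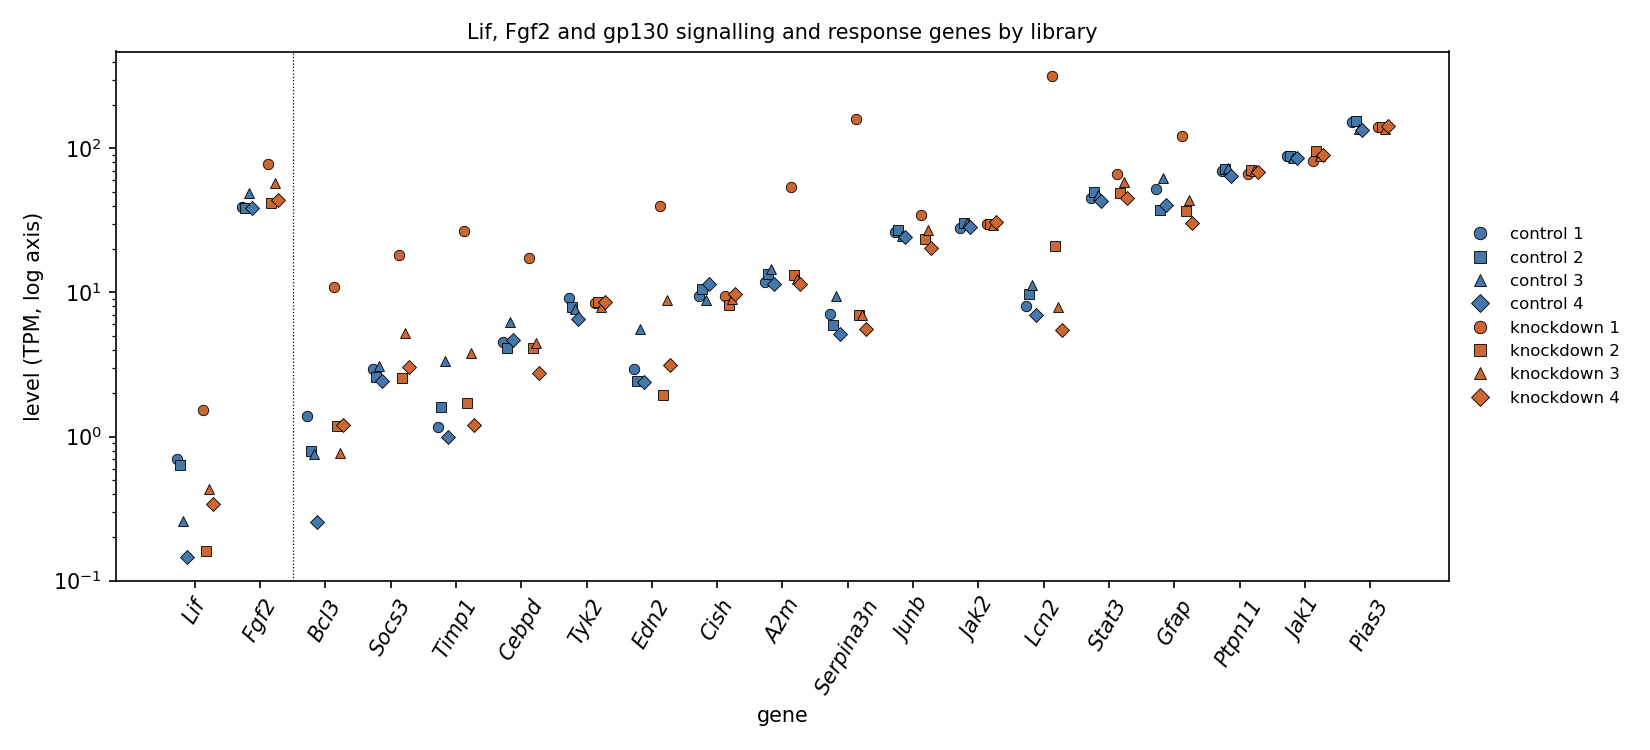
Level in TPM (y axis, log scale) of Lif, Fgf2 and gp130 signalling and response genes (x axis), 1 point per library, controls in blue and knockdown libraries in orange, with the marker shape giving the replicate number. The orange circle, knockdown 1, lies at 320 TPM for Lcn2 and 159 TPM for Serpina3n, while Jak1, Pias3 and Ptpn11 lie close together in all 8 libraries.

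Some cell type markers also stood apart in knockdown 1, and others differed between the groups. The retinal ganglion cell markers summed to 1125 TPM in knockdown 1, against 1405 to 1510 TPM in the controls and 1314 to 1422 TPM in the other knockdown libraries, and 8 of the 9 were lowest there, against 27.0% of all tested genes. Between the groups the sums overlapped, since control 2 had 1405 TPM and knockdown 2 had 1422 TPM. Slc17a6, the vesicular glutamate transporter gene of these cells, had 67.1 to 75.2 TPM in the controls. In the knockdown libraries it had 46.2 to 58.4 TPM, and it passed in edgeR (log2 fold change -0.44, SE 0.07, adjusted p = 0.0465). The neurofilament gene Nefl also did not overlap between groups, without passing (log2 fold change -0.19, edgeR adjusted p = 0.651). Slc17a6 and Nefl were named after their values were seen. The other markers of this list overlapped between groups, and 2.95% of all tested genes did not. The astrocyte list, which includes Gfap, summed to 169 TPM in knockdown 1 and 77.2 to 109 TPM elsewhere. Gfap, which is also on the gp130 response list, held 121 TPM of that sum in knockdown 1 and 30.6 to 61.9 TPM elsewhere. Among the 5 astrocyte markers 3 were highest in knockdown 1 and 1, Pdgfra, was lowest (14.2 TPM). Of the 10 Müller markers 4 were highest and 3 lowest in knockdown 1, and their sum stayed at 5673 to 6034 TPM. Microglia and macrophage markers, all 7 present, summed to 64.5 TPM in knockdown 1 and 50.4 to 68.9 TPM in the others. Endothelial markers summed to 157 to 184 TPM in the controls and 142 to 153 TPM in the knockdown libraries, lowest in knockdown 3, and pericyte and smooth muscle markers to 228 to 274 and 216 to 233 TPM. Their part in the levels of Lif and Fgf2 was not tested.

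Among the other genes of these pathways 0 passed in edgeR over all genes, on all 7 lists. In the list of 18 neurotrophin ligands, receptors and adaptors, 16 were tested, 0 had an unadjusted p under 0.05, and the median log2 fold change was -0.03. Bex1, which encodes an adaptor of p75, had 108 ± 4.20 TPM and 99.2 ± 5.17 TPM (SD, n = 4; edgeR adjusted p = 0.941). Maged1 and Bex3, the most abundant of the list, had log2 fold changes of -0.03 and -0.06. Ntf5 was at or below 0.401 TPM in all 8 libraries.

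Of 12 other gp130 cytokine and receptor genes only 4 were tested, since most were scarce, and 0 had an unadjusted p under 0.05. Il6 was at 0 in 7 libraries and at 0.429 TPM in control 1. Osmr, the oncostatin M receptor gene, had 9.54 TPM in knockdown 1 and 4.79 to 7.30 TPM elsewhere (log2 fold change 0.10, edgeR adjusted p = 0.997). Il11ra1 had 20.2 ± 0.979 and 19.8 ± 1.76 TPM, and Clcf1, a second ligand of CNTFR, had 2.20 ± 0.311 and 2.51 ± 0.526 TPM (SD, n = 4).

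In the FGF list 13 of 24 genes were tested and 0 had an unadjusted p under 0.05, with a median log2 fold change of -0.02. Sdc4 and Sdc3, heparan sulphate co-receptors, had log2 fold changes of -0.05 and -0.06, and Fgfrl1, a receptor without a kinase, had 5.19 ± 1.496 and 6.42 ± 1.79 TPM (SD, n = 4; edgeR adjusted p = 0.989). Fgf10 had 2.37 ± 0.319 and 1.95 ± 0.663 TPM (SD, n = 4). The 6 proposed PEDF receptors were all tested, with 0 at that threshold. Pnpla2, which encodes a lipase that binds PEDF, had 11.9 ± 2.66 and 10.8 ± 0.818 TPM, and Plxdc2 had 7.76 ± 0.688 and 8.12 ± 0.298 TPM (SD, n = 4). Atp5b and Rpsa, the most abundant of these, both had a log2 fold change of -0.03. In the GDNF family list 6 of 10 were tested, with 0 at that threshold, and the receptor kinase gene Ret had 25.7 ± 2.45 and 25.3 ± 1.61 TPM (SD, n = 4). The log2 fold change was -0.09 for Ncam1 (edgeR adjusted p = 0.936) and 0.10 for Gfra4, a co-receptor gene (edgeR adjusted p = 0.992).

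Of 14 other survival factor genes 12 were tested, with 1 higher and 1 lower at an unadjusted p under 0.05. Nxnl1, which encodes the rod-derived cone viability factor, had 376 ± 13.5 and 347 ± 14.8 TPM (SD, n = 4), a log2 fold change of -0.12 with SE 0.05 (edgeR adjusted p = 0.903). Ptprz1, a receptor for pleiotrophin and midkine, had 17.9 ± 1.67 and 20.1 ± 1.68 TPM (SD, n = 4), a log2 fold change of 0.16 with SE 0.06 (edgeR adjusted p = 0.859). Psap, the prosaposin gene, was the most abundant of this list and had a log2 fold change of 0.00.

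**Figure D4:**
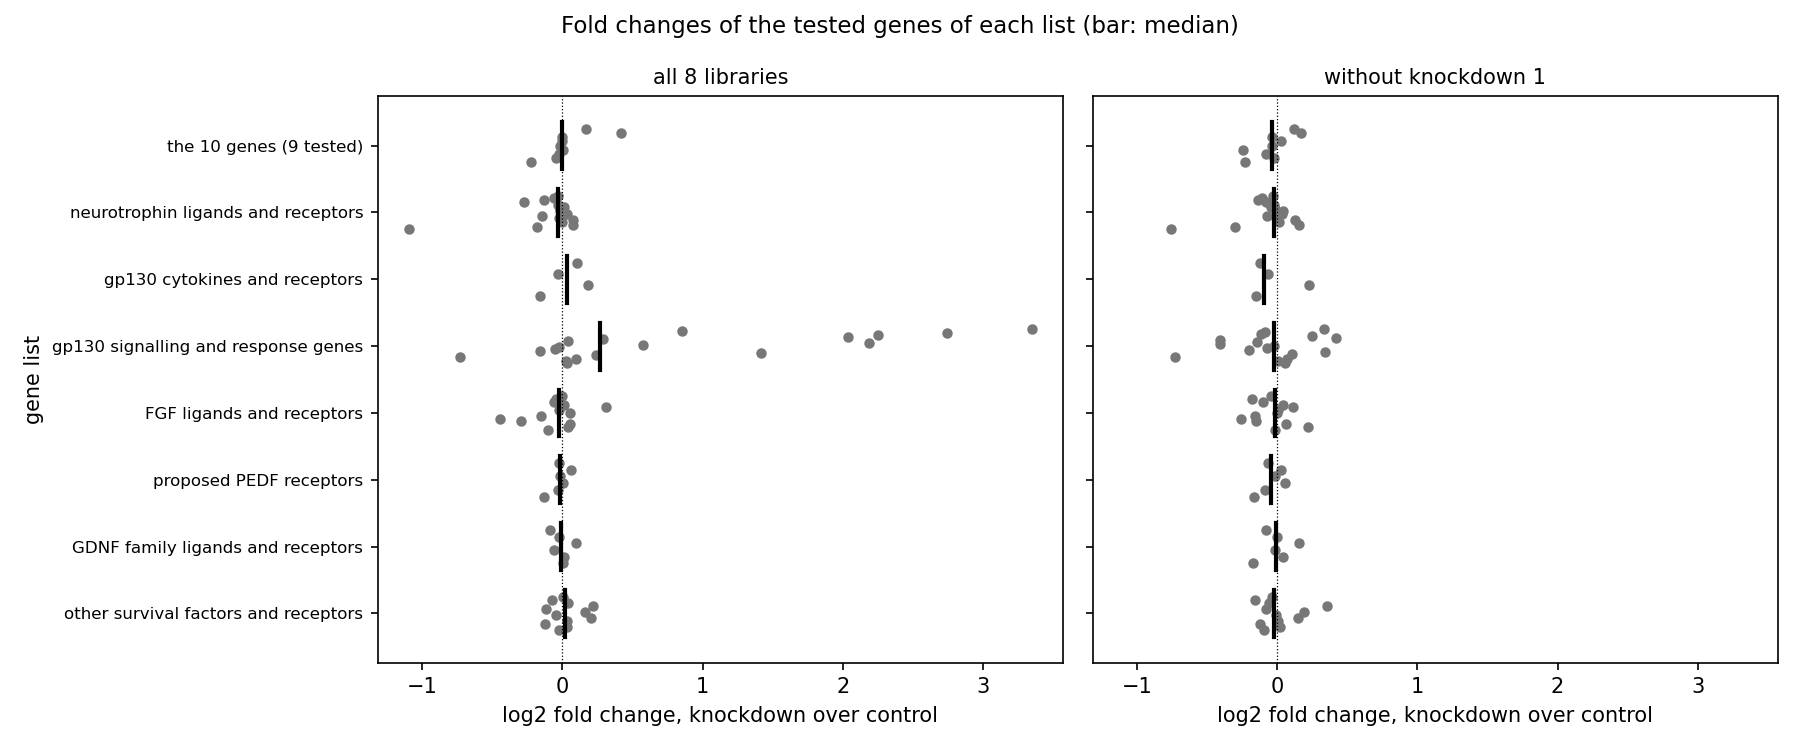
Log2 fold change, knockdown over control (x axis), of every tested gene of the 10-gene set and of the 7 pathway lists (y axis), for all 8 libraries and without knockdown 1; each point is a gene and bars are medians. The gp130 signalling and response genes reach 3.35 with all libraries, and their median passes from 0.26 to -0.02 without knockdown 1.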

How the data were processed

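RNA of 8 retinal libraries, 4 per group, was sequenced as paired reads after TRIzol extraction, per the labels' protocols. The deposited table carries TPM in its name, but its values are estimated counts made by the authors, since the columns sum to 16.03 to 21.4 M and 90.6% to 91.9% of the values are whole. The submitters' processing notes list Bowtie 0.12.2 and mm9 without saying what each was used for. Which counter and annotation made the table is not given in the sources used here. Columns of group means by the authors were left out.

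Dividing those counts by the deposited gene lengths and scaling gave TPM, and counts were rounded for testing. Of 29582 genes with counts, 16118 with at least 1 TPM in at least 4 libraries were tested with edgeR 4.0.16 in R 4.3.3 (TMM scaling, quasi-likelihood test, group as the only term), and p-values were adjusted over all of them by Benjamini and Hochberg. SE was derived from the size of the log2 fold change and its F statistic, and intervals use the fit's degrees of freedom, so they are approximate. Alternatives were DESeq2 1.42.0, limma 3.58.1 on log2(TPM + 1) and log2(TPM + 0.1), RLE size factors, other filters, a replicate block, Ddx3y as a covariate, and each library left out. Positions come from GENCODE M21.

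The 10 genes, the gene lists and the rule for named genes were chosen with earlier results of these data known. The rule takes the 10 genes and, from each pathway list with no called gene, the 2 with the highest mean TPM and the 2 with the smallest p; some genes it names are not reported here. The lists hold neurotrophin, gp130 cytokine, gp130 response, FGF, PEDF receptor, GDNF family and other survival genes, and markers of 12 cell types.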

Additional observations from a re-analysis of the deposited data

Results flagged for a closer look

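Of 172 groups of 4 libraries examined over the 10 genes and the pathway lists, 21 had a library far from the other 3 by Dixon's ratio. Independent normal values would give about 1 in 20. The genes share the same 8 libraries and the lists were chosen with earlier results known, so an excess was not tested. Knockdown 1 accounted for 10 of the 21. It was the highest of its group for Lcn2 (320 TPM), Serpina3n (159 TPM), Gfap (121 TPM), A2m (54.02 TPM), Timp1 (26.6 TPM), Cebpd (17.2 TPM) and Bcl3 (10.9 TPM). It was the lowest for Kidins220 (76.8 TPM), Fgf1 (24.1 TPM) and Fgf3 (0.610 TPM). Control 3 was the highest control for Fgf2 (48.7 TPM), Fgf1 (33.6 TPM) and Edn2 (5.55 TPM). Control 4 was the lowest control for Kidins220 (82.8 TPM), Sort1 (57.5 TPM), Osmr (4.79 TPM) and Alk (2.54 TPM), and the highest for Ptn (201 TPM). Knockdown 2 was the highest of its group for Bex1 (107 TPM) and Clcf1 (3.29 TPM), and control 1 was the lowest control for Nrtn (5.86 TPM). Fgf2 and Lif in knockdown 1 did not reach Dixon's critical value of 0.829.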

How the results depend on the processing

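None of the 9 tested genes was called at an adjusted p under 0.05 in any alternative run except edgeR with no expression filter, which called 1, Fgf2. That fit called 157 genes in all and 7 pathway genes, among them Socs3, Bcl3, Edn2, Timp1, Serpina3n and Lcn2. The count over all genes, 10, was 45 with DESeq2, 0 with limma on log2(TPM + 1) and 1 at a mean TPM of at least 5, and 0 to 57 when each library was left out, the highest without control 3. Pathway calls then ranged from 0 to 1, with the 1 also without control 3. Log2 fold changes near 0 changed sign in some runs, and so did that of Lif (0.53 in the fit with no filter). Il6st gave -0.000395 with DESeq2, -0.000358 with RLE size factors, -0.00621 with no filter and -0.00963 with the Ddx3y covariate. Cntf gave -0.0356 with limma on log2(TPM + 1) and -0.0415 on log2(TPM + 0.1), -0.00235 with no filter and -0.10 with Ddx3y. Lifr gave 0.00212 and 0.00211 with limma, 0.00175 at a mean TPM of at least 5 and 0.00583 with Ddx3y, and with Ddx3y Cntfr gave 0.0103 and Lif -0.0445. The cause was not tested. Leaving out each library in turn gave -0.51 to 0.85 for Lif, -0.25 to 0.17 for Cntf, -0.0887 to 0.0552 for Ngfr, -0.0644 to 0.0309 for Cntfr, -0.0342 to 0.0274 for Lifr, -0.0338 to 0.0427 for Il6st, 0.17 to 0.54 for Fgf2, 0.12 to 0.23 for Serpinf1, -0.29 to -0.16 for Bdnf and -0.08 to -0.02 for Ntrk2. Libraries with the same replicate number did not deviate together over all tested genes (correlations -0.04, -0.01, -0.03 and -0.16). The labels state no pairing, and correlations over all genes cannot exclude one. With a replicate block 11 genes were called, 0 of them among the 9, Fgf2 gave 0.37 and Cntf -0.0317. Counts of 5 to 48 limit Lif.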
